A study of Mus musculus with 42 samples.

Results

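Imprinted genes are genes of which the copy from one parent is expressed and the copy from the other is silenced, and their RNA levels were followed here through the undirected differentiation of mouse embryonic stem cells (ESCs) into embryoid bodies. A list of 48 imprinted genes was matched by symbol to the gene identifiers, and 39 were found among the 14296 genes measured, 32 of them protein coding and 7 noncoding in the annotation. By textbook assignment, 24 of the 39 are expressed from the maternal copy and 15 from the paternal copy, and they lie in 17 loci. Kcnq1ot1, Rtl1, Usp29, Snrpn, Plagl1, Slc22a3, Nnat, Nap1l5 and Peg13 were not matched and are not analysed here. The genes measured had passed a filter of more than 1 CPM (read counts scaled to library size) in at least 2 samples, so the counts that follow describe the members that passed it and not imprinted genes at large.

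The cells were of the ESC line W9.5, given with the strain background 129X1/SvJ and taken at a low passage number, and all samples share this 1 line. The withdrawal of leukaemia inhibitory factor started differentiation, and cells were harvested every 6 h from 0 h to 120 h in 2 courses, replicates A and B. This gave 21 groups of 2 libraries, 42 in all, of poly-A RNA with no genetic change or added agent separating them. Both courses came from the same line, so the p-values measure the spread between duplicate cultures of W9.5 and not between lines or animals. The values are totals per gene that do not separate the parental copies, so a higher level can come from either copy. Fewer cells that express a gene and less of its RNA per cell cannot be told apart in these bulk samples.

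Imprints are DNA methylation marks set in the germ line on control regions, which are then kept through the wave of demethylation after fertilisation. At the H19-Igf2 locus an insulator on the maternal copy separates Igf2 from shared enhancers that lie beyond H19, while at several other loci a long noncoding RNA expressed from the paternal copy is linked to silencing of its neighbours. Many imprinted genes act on fetal and placental growth, and those expressed from the paternal copy are often described as growth promoting and those from the maternal copy as growth restraining.

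Several of the members carry microRNAs, short RNAs that pair with targets through a seed at bases 2 to 8. They are shown because their host transcripts were among the members that changed; poly-A libraries counted the hosts and not the mature microRNAs. Mature sequences are from RefSeq on GRCm38.p6, with the seed in capitals. The exon of H19 holds miR-675 (chr7:142577078-142577133, minus strand), an intron of Igf2 holds miR-483 (chr7:142654932-142654989, minus strand), and the exon of Meg3 holds miR-770 (chr12:109563710-109563765, plus strand). Mirg spans 14 hairpins, 4 of them in exons, of which miR-134 and miR-410 are given. Of all mature sequences in the members, miR-453 and miR-496a-5p, both in introns of Mirg, were the pair that shared a seed.
mmu-miR-675-5p: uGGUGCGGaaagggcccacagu
mmu-miR-675-3p: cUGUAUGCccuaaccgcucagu
mmu-miR-483-5p: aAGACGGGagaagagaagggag
mmu-miR-483-3p: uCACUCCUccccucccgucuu
mmu-miR-770-5p: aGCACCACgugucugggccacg
mmu-miR-770-3p: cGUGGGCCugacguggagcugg
mmu-miR-134-5p: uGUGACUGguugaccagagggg
mmu-miR-410-3p: aAUAUAACacagauggccugu
mmu-miR-453: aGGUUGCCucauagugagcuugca
mmu-miR-496a-5p: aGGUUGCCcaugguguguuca

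Promoters of members were searched for TGCCGC, the core of the methylated motif bound by the imprint keeper Zfp57, on either strand. Of 44 RefSeq windows of 300 bases at the starts of 29 members, 11 (25%) held it, against 11.61% of all 32851 windows. Windows can overlap and are counted apart, as those of Mest from chr6:30737800 and chr6:30737803, which hold the same 2 matches. The windows of members held a median of 16.5 CG pairs, against 7 over all windows. The motif itself holds a CG pair, and whether its share exceeds what the CG content gives was not tested. A match describes the letters of the window and is no evidence that Zfp57 binds there. The 250 bases before a start are given for Mest, Zdbf2 and Meg3, whose levels changed early in the course, with the matches in capitals. The Mest stretch lies at chr6:30737800-30738049 and has 2 matches, that of Zdbf2 at chr1:63200108-63200357 has 3, and that of Meg3 at chr12:109540746-109540995 has 1. The stretches are printed as the plus strand of GRCm38.p6, and a match on the other strand appears as GCGGCA. For each gene a window that holds matches is shown. The Zdbf2 stretch belongs to an upstream start, and the window at the start of the annotated gene (chr1:63273019-63273268) had 0 matches, as had another start of Mest (chr6:30733256-30733505) and of Meg3 (chr12:109545148-109545397).
Mest: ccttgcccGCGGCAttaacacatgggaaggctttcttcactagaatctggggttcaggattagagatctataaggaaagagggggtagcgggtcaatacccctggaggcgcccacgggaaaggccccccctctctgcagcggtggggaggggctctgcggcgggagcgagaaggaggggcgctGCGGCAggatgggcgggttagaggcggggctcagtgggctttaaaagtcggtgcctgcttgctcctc
Zdbf2: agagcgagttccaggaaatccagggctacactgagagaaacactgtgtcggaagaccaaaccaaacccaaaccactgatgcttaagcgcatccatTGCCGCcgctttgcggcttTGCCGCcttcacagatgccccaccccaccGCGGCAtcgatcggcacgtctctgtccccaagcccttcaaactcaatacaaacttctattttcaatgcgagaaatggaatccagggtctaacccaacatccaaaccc
Meg3: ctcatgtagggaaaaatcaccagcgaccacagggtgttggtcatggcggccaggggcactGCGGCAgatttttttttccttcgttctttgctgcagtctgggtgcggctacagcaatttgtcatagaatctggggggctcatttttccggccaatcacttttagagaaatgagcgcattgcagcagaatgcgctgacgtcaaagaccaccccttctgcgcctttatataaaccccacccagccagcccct

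The depth recovered from the values ranged from 10120972 to 51652434 counted reads per library, with a median of 29692082. A level of 3 reads, about the most that a count of 0 allows, corresponded to between 0.0571 and 0.316 CPM, for counting error alone. Before the results, the 96 h libraries need naming, because their duplicates stood apart. Over all genes the median distance between replicates A and B was 0.407 on the log2 scale at 96 h, against at most 0.274 at the other time points. The undifferentiated state was marked by Pou5f1, Nanog, Sox2, Zfp42, Klf4 and Esrrb. In replicates A and B they summed to 3404 and 3669 CPM at 0 h and to 1659 and 1812 CPM at 48 h. At 120 h the sums were 1582 and 1532 CPM.

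More imprinted genes rose than fell at each interval compared. In the limma test on log2 CPM, with an adjusted p below 0.0001 as the threshold, 20 of the 39 were higher (51.3%) and 3 lower (7.69%) at 120 h than at 0 h, where 12.9% of all genes were higher and 10.1% lower. From 0 h to 48 h 13 were higher and 5 lower, against 14.8% and 15.6% of all genes. After 48 h, up to 120 h, 12 were higher and 1 lower, against 14.2% and 11% of all genes. The median log2 change of the 39 was 1.36 from 0 h to 120 h, against -0.0212 over all genes. It was 0.33 from 0 h to 48 h and 0.415 from 48 h to 120 h, against 0.014 and 0.00315. These comparisons share the 0 h, 48 h or 120 h libraries and are not independent of each other. Igf2os and Airn, both of the paternal copy, are among the members called higher from 48 h to 120 h and from 0 h to 120 h. Both lay below 1 CPM at 0 h and 48 h and so passed the filter only through other libraries. Their late rises are thus partly given by the filter and add no separate support. The same holds for Dcn from 0 h to 48 h, with 0 reads at 0 h.

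Within the first 6 h, 11 members were higher and 3 lower, against 11.8% and 14.5% of all genes, with a median log2 change of 0.332 against -0.0466. By unadjusted p below 0.05 15 were higher and 11 lower, a more even balance, against 4148 higher and 4718 lower of all 14296 genes. Igf2os, Airn and Dcn had 0 reads at 0 h. Their changes were set at the bound that 3 reads per library gives, or at 0 where the later level lay below that floor. With Igf2os at its bound and Airn and Dcn at 0, the median of the members was 0.246 from 0 h to 6 h. With Dcn at its bound and Igf2os at 0 it was 0.225 from 0 h to 48 h. Fewer than these 14 members were called when any 1 of the 4 libraries was left out. A time point then has 1 library, and the share of all genes called in such fits is not given here. The lower counts therefore cannot be read as particular to the members. Among changes that lost the call, that of Meg3 stayed at -0.92 to -0.90 and that of Igf2os at 5.001 to 5.08. With 96 h left out of the fit, which was chosen after seeing the data, all counts of calls were above those of the full fit. They were 17 from 0 h to 6 h (14 in the full fit) and 20 from 0 h to 48 h (18). For 48 h to 120 h they were 16 (13), and for 0 h to 120 h 26 (23). Leaving out 96 h, whose duplicates lay furthest apart over all genes, changes the fitted spread of every gene. The share of all genes called in that fit is not given here, so the higher counts cannot be read as particular to the members.

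Over the whole course, 32 of the 39 members differed between time points in the limma F test, against 74.6% of all genes, a share of the same order. Phlda2, Asb4, Ppp1r9a, Zrsr1, Commd1, Nespas and Mcts2 did not pass. The span from the lowest to the highest mean, in log2 units, was 2.554 in the median member, against 1.502 in the median of all genes. The highest mean fell between 102 h and 120 h for 16 members, among them H19, Igf2, Peg3 and Grb10, where 21.9% of all genes had theirs. It fell at 0 h for 4, Kcnq1, Slc22a18, Ppp1r9a and Trappc9, against 16.6% of all genes.

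**Figure D1:**
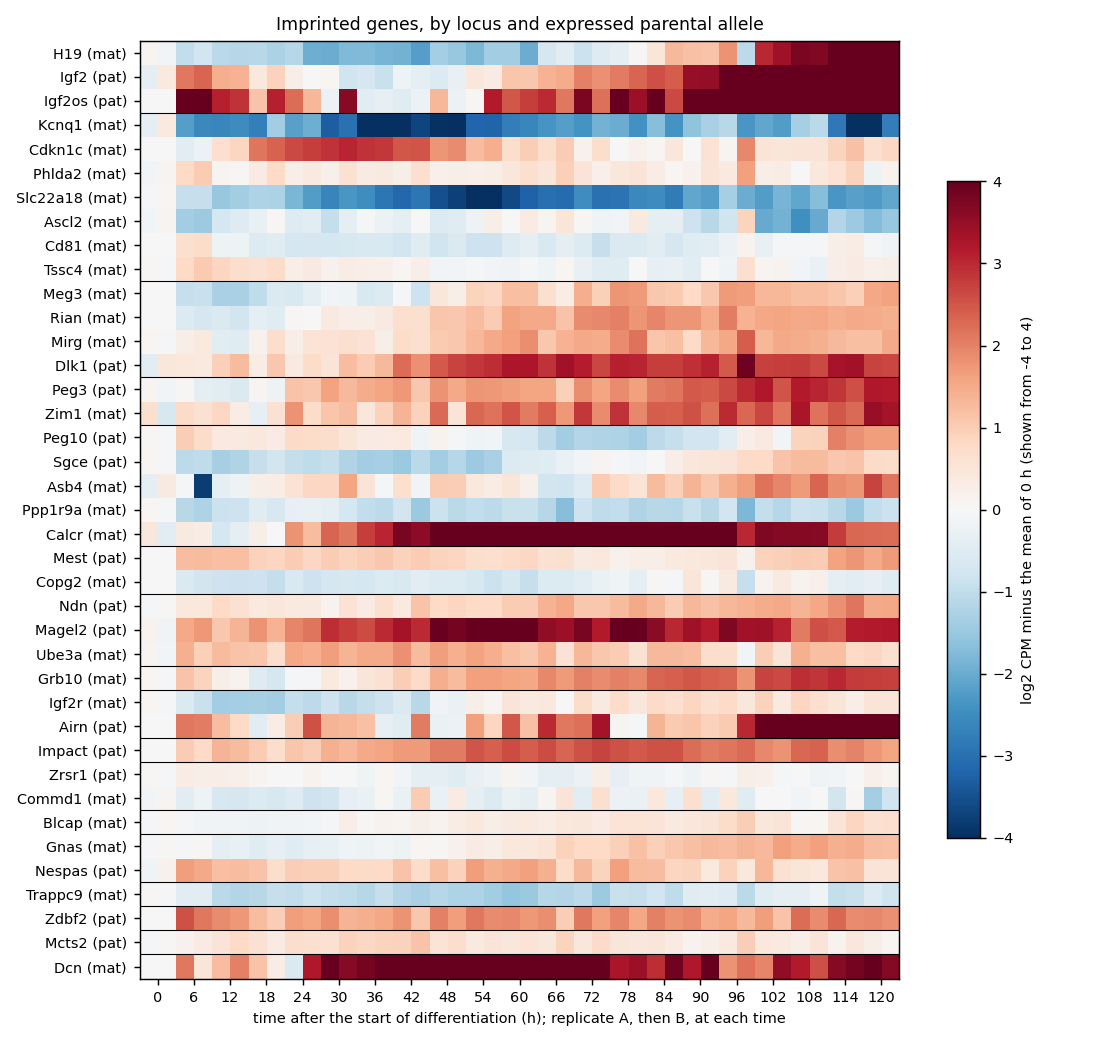
Level of the 39 imprinted genes in each of the 42 libraries, as log2 CPM minus the mean of the 0 h duplicates (red, above 0 h; blue, below; the scale ends at -4 and 4). Columns are hours with replicate A then B, rows are grouped by locus with mat or pat for the expressed copy. Igf2 and Igf2os are red at 6 h, and Igf2, H19 and Igf2os are red at 114 h and 120 h, while Kcnq1 and Slc22a18 stay blue.

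Members of the paternal copy were called higher more often than lower in each of the 4 comparisons. Among those of the maternal copy this held in the longer comparisons. In the first 6 h their calls, 3 higher and 2 lower, were near or below the shares of all genes. Between 0 h and 120 h 11 of the 15 members of the paternal copy were higher (73.3%, against 12.9% of all genes) and 0 lower, with a median log2 change of 1.68. By unadjusted p below 0.05 12 were higher and 0 lower, against 4108 and 4028 of all 14296 genes. The paternal members were 6 higher (40%) and 1 lower from 0 h to 48 h, and 7 higher (46.7%) and 0 lower from 48 h to 120 h. For the latter interval the unadjusted counts were 9 and 4, against 4455 and 4274 of all genes. Of the 24 expressed from the maternal copy, 9 were higher (37.5%) and 3 lower (12.5%, against 10.1% of all genes) between 0 h and 120 h, with a median of 0.698. They were 7 higher and 4 lower from 0 h to 48 h (29.2% and 16.7%, against 14.8% and 15.6% of all genes), and 5 higher and 1 lower from 48 h to 120 h (20.8% and 4.17%, against 14.2% and 11%). In the first 6 h 8 of the 15 paternal members were higher (53.3%) and 1, Sgce, was lower (6.67%), with a median of 0.895. In the same interval 3 of the 24 maternal members were higher and 2 lower (12.5% and 8.33%, against 11.8% and 14.5% of all genes), with a median of -0.319. By unadjusted p below 0.05 5 of these 24 were higher and 10 lower, against 4148 and 4718 of all 14296 genes. The difference between both classes was not tested, and the classes follow textbook assignments, not alleles read in these cells.

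**Figure D2:**
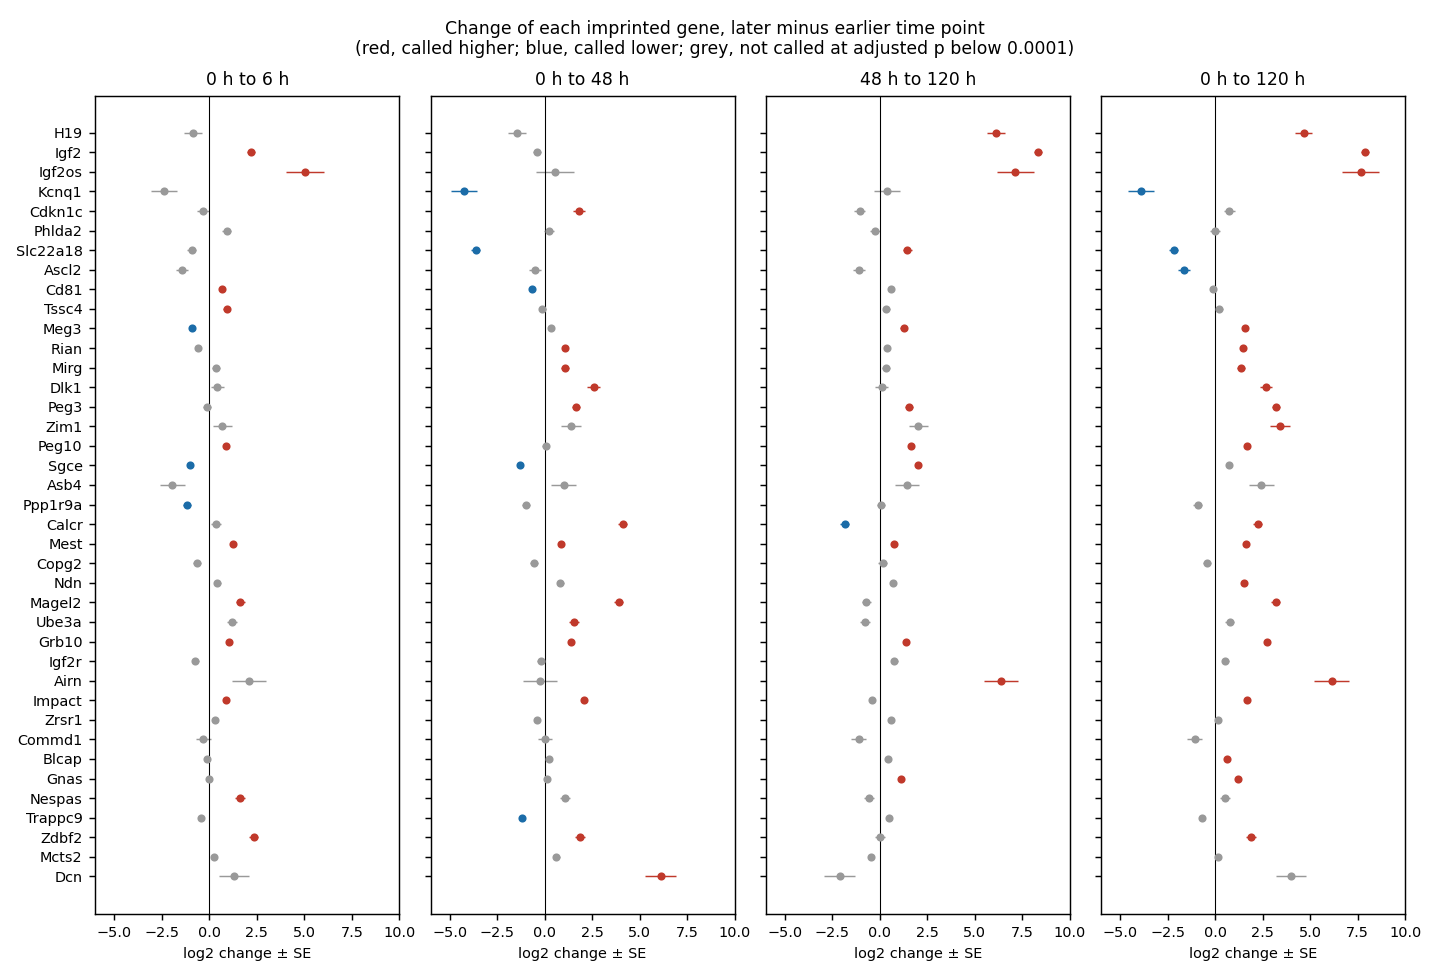
Log2 change of each imprinted gene in the 4 comparisons, with the standard error of the limma fit as the bar (2 libraries per time point). Red points were called higher and blue points lower at an adjusted p below 0.0001, and grey points were not called; from 0 h to 120 h 20 points are red and 3 are blue.

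At the H19-Igf2 locus the lowest means came at 36 h to 42 h, and the late rises that followed were among the largest of all members. Igf2, a growth factor of the fetus (chr7:142650766-142666816, GRCm38), stood at 0.91 and 1.69 log2 CPM at 0 h in replicates A and B, at 3.39 and 3.63 at 6 h, at 0.76 and 1.003 at 48 h and at 9.14 and 9.24 at 120 h. The libraries of 6 h lay above those of 0 h and 48 h, and those of 120 h lay far above all of them. The rise within 6 h was 2.21 (SE 0.214, adjusted p = 1.97e-09, limma), or 4.63-fold. The level at 48 h did not differ from that at 0 h by the threshold (-0.42, adjusted p = 0.0907). From 48 h to 120 h Igf2 rose by 8.31 (SE 0.214, adjusted p = 1.95e-21), or 318-fold. The increase ran through 54 h (1.76 and 1.63), 72 h (3.32 and 3.14), 90 h (4.77 and 4.82) and 102 h (7.20 and 7.20) to its highest mean of 9.48 at 114 h, and from 84 h on all libraries lay above every library of 0 h to 48 h.

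H19, an untranslated RNA expressed from the maternal copy (chr7:142575529-142578143), started at 2.36 and 2.17 log2 CPM at 0 h, passed 1.27 and 1.501 at 6 h, reached 0.90 and 0.75 at 48 h and ended at 6.99 and 6.86 at 120 h. The early decline did not pass the threshold at 6 h (-0.88, adjusted p = 0.109) or at 48 h (-1.44, adjusted p = 0.0093). The rise from 48 h to 120 h was 6.10 (SE 0.467, adjusted p = 1.86e-11), or 68.5-fold, and that from 0 h to 120 h was 4.66 (adjusted p = 2.88e-09). The H19 libraries of 6 h lay below those of 0 h, where those of Igf2 lay above, and H19 lay above its range of 0 h to 48 h in all libraries only from 102 h. At 96 h replicate A had 4.06 and replicate B 1.22, so that replicate B was then within the early range.

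Igf2os, an RNA antisense to Igf2 that overlaps it by 7124 bp, had 0 reads in both libraries of 0 h, 19 and 11 reads at 6 h, 1 and 0 reads at 48 h and 105 and 114 reads at 120 h. Against the floor of 3 reads per library it was at least 5.29-fold higher at 6 h and at least 33.8-fold higher at 120 h than at 0 h. The fitted changes were 5.04 from 0 h to 6 h (SE 0.983, adjusted p = 8.7e-05), 7.12 from 48 h to 120 h (adjusted p = 7.31e-07) and 7.66 from 0 h to 120 h (adjusted p = 2.2e-07), and they depend on the offset of voom where a count is 0. The call at 6 h was lost without replicate A or B of either time point, at changes of 5.001 to 5.08, and also with 96 h left out (5.04). The peak at 6 h and the late climb were seen in Igf2 as well. All libraries of Igf2os from 0 h to 48 h lay below 1 CPM (highest -0.50 log2 CPM). Igf2os thus passed the filter through later libraries, and its late rise is partly given by that. The strand setting of the counting is not given in the sources used here, so reads of Igf2 and Igf2os cannot be told apart with certainty.

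**Figure D3:**
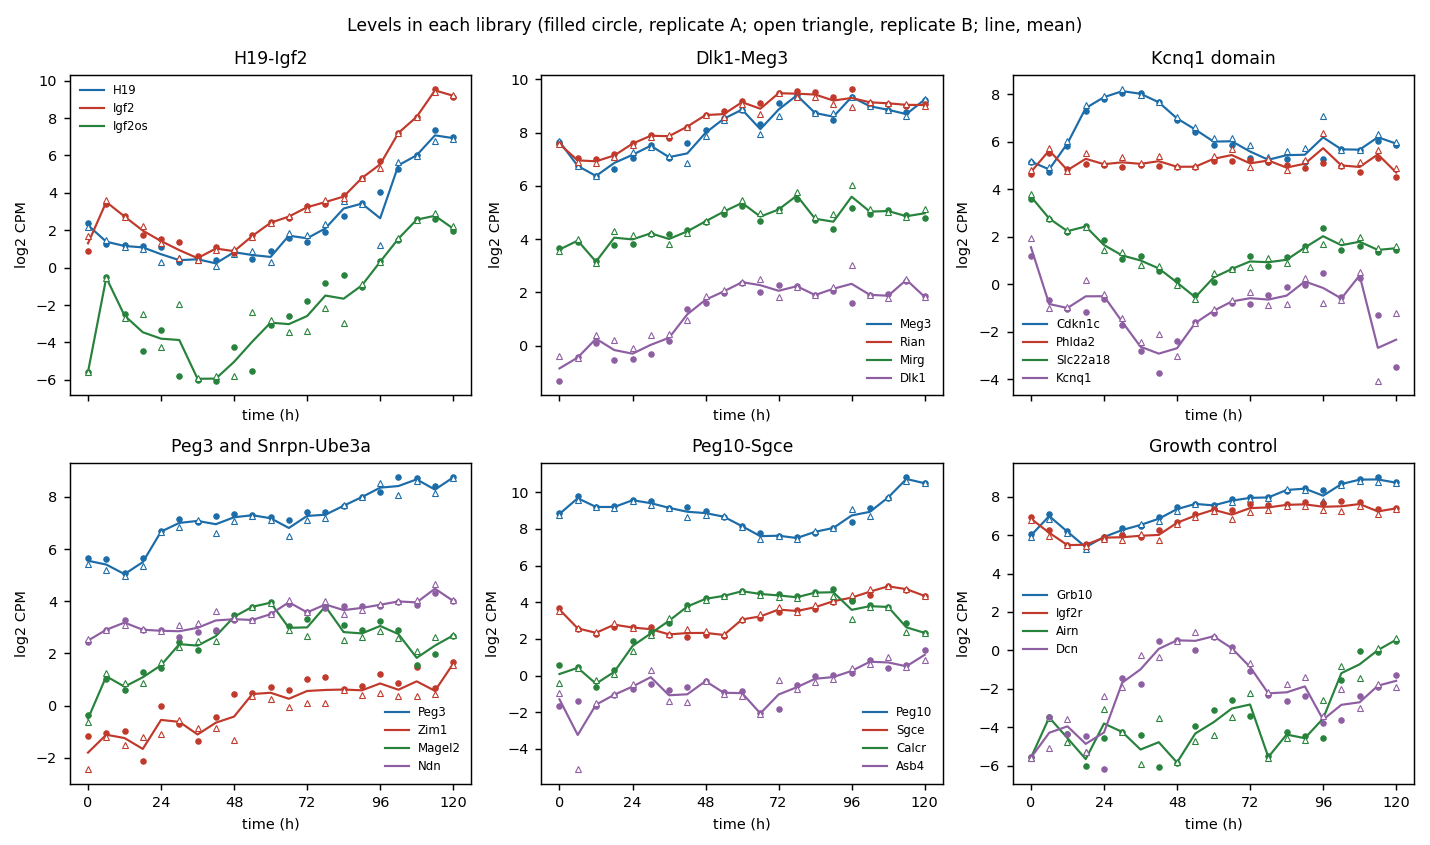
Log2 CPM of 23 imprinted genes over time, in 6 panels by locus or role, with replicate A as filled circles, replicate B as open triangles and lines through the means. The panel of H19, Igf2 and Igf2os shows the 6 h peak of Igf2 and Igf2os and the climb of all 3 after 48 h, and the panel of the Kcnq1 domain shows Cdkn1c reaching its highest mean of 8.13 at 30 h.

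In the Kcnq1 domain, on the same chromosome, members moved in different directions. Cdkn1c, an inhibitor of cyclin-dependent kinases, stood at 5.14 and 5.19 log2 CPM at 0 h, at 8.04 and 8.22 at 30 h and at 6.92 and 7.05 at 48 h. The libraries of 30 h and 48 h lay above those of 0 h, and by 120 h the level was back at 5.85 and 6.00. Its rise from 0 h to 48 h was 1.82 (SE 0.298, adjusted p = 7.66e-06, limma), and this call was lost without any 1 of the 4 libraries, at changes of 1.75 to 1.88. Slc22a18, of a family of membrane transporters, fell by 3.62 on the log2 scale from 0 h to 48 h (3.596 and 3.78 to 0.18 and -0.04, SE 0.232, adjusted p = 3.97e-13). It then rose by 1.44 to 1.43 and 1.60 at 120 h (SE 0.232, adjusted p = 6.87e-06), a call lost without replicate B of 48 h or of 120 h, at changes of 1.34 to 1.55 over the 4 libraries. At 120 h it was still lower than at 0 h (-2.17, adjusted p = 8.89e-09).

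Kcnq1, a potassium channel subunit, fell by 4.26 from 0 h to 48 h (1.18 and 1.94 to -2.38 and -3.01 log2 CPM, SE 0.684, adjusted p = 5.76e-06). Without replicate B of 0 h or of 48 h the call was lost, at changes between -4.64 and -3.88 over the 4 libraries. At 120 h it stood at -3.47 and -1.21, and the change from 0 h was -3.90 (SE 0.684, adjusted p = 2.53e-05), with the call lost without replicate A of 0 h, replicate A of 120 h or replicate B of 0 h (-5.03 to -2.77). Its duplicates were far apart late in the course, and 5 of the 42 libraries had 3 or fewer reads. The other maternal members of the domain changed less. Ascl2, a transcription factor of trophoblast, was lower by 1.62 at 120 h than at 0 h (adjusted p = 9.2e-05), a call lost without any 1 of the 4 libraries (-1.73 to -1.51). Cd81, a tetraspanin of the cell surface, was higher by 0.68 at 6 h (adjusted p = 1.69e-05) and lower by 0.68 at 48 h (adjusted p = 1.37e-05). The call at 6 h was lost without any 1 of the 4 libraries (0.64 to 0.72), and that at 48 h without replicate A of 0 h, replicate A of 48 h or replicate B of 0 h (-0.79 to -0.58). Tssc4 was higher by 0.92 at 6 h (adjusted p = 7.37e-05), also lost without any 1 library (0.80 to 1.04). Phlda2, known to restrain growth of the placenta, had no call, with 4.62 and 4.83 log2 CPM at 0 h and 4.54 and 4.88 at 120 h.

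The noncoding members of the Dlk1-Meg3 locus on chromosome 12 had their lowest means at 12 h and were higher at 120 h than at 0 h. Meg3, an untranslated RNA of the maternal copy (chr12:109541001-109571726), had 7.65 and 7.67 log2 CPM at 0 h, 6.74 and 6.76 at 6 h, 8.10 and 7.88 at 48 h and 9.21 and 9.27 at 120 h. The 6 h libraries lay below and the 120 h libraries above all others named. The fall within 6 h was -0.91 (SE 0.166, adjusted p = 3.81e-05, limma), a call lost without any 1 of the 4 libraries (-0.92 to -0.90). The rise from 48 h to 120 h was 1.25 (SE 0.166, adjusted p = 4.07e-07), and that from 0 h to 120 h was 1.58 (adjusted p = 6.97e-09). Its highest mean was 9.40 at 78 h.

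Rian, which holds small nucleolar RNAs, and Mirg, which holds miR-134, miR-410, miR-453 and miR-496a of the microRNAs shown above, rose as well. Rian was higher by 1.09 at 48 h (adjusted p = 2.92e-07) and by 1.47 at 120 h (adjusted p = 1.92e-09) than at 0 h. Mirg was higher by 1.06 (adjusted p = 8.27e-05) and 1.36 (adjusted p = 3.47e-06). The Mirg call at 48 h was lost without any 1 of the 4 libraries (0.99 to 1.13), and that at 120 h without replicate B of 0 h or of 120 h (1.19 to 1.53). Dlk1, a transmembrane protein related to Notch ligands and the member of this locus expressed from the paternal copy, rose too. It went from -1.31 and -0.38 log2 CPM at 0 h to 1.59 and 1.86 at 48 h, a change of 2.58 (SE 0.337, adjusted p = 2.51e-07), and stood at 1.85 and 1.82 at 120 h. Both libraries of 48 h were above both of 0 h, and from 48 h to 120 h the change was 0.11 (adjusted p = 0.809).

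Peg3 and Zim1 encode zinc-finger proteins of 1 locus on chromosome 7. Peg3, of the paternal copy, stood at 5.67 and 5.43 log2 CPM at 0 h, at 5.61 and 5.20 at 6 h, at 7.36 and 7.08 at 48 h and at 8.75 and 8.73 at 120 h. The groups of 0 h, 48 h and 120 h did not overlap and lay in this order. The change was 1.66 from 0 h to 48 h (SE 0.21, adjusted p = 1.37e-07, limma), 1.53 from 48 h to 120 h (adjusted p = 7.1e-07) and 3.19 from 0 h to 120 h (adjusted p = 6.51e-13), the last 9.13-fold. Zim1, of the maternal copy in the embryo, went from -1.17 and -2.42 at 0 h to 1.68 and 1.54 at 120 h, a change of 3.41 (SE 0.514, adjusted p = 2.93e-06). The call was lost without replicate A of 120 h or replicate B of 0 h, with changes of 2.78 to 4.03 over the 4 libraries.

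At the Peg10-Sgce locus, a pair of genes of the paternal copy whose starts lie 99 bp apart on opposite strands, 1 gene rose and the other fell in the first 6 h, and both rose after 48 h. Peg10, which derives from a retrotransposon and is needed in the placenta, rose by 0.86 within 6 h (8.85 and 8.78 to 9.79 and 9.56 log2 CPM, adjusted p = 8.49e-05), a call lost without any 1 of the 4 libraries (0.74 to 0.98). It reached its lowest mean, 7.503, at 78 h and its highest, 10.7, at 114 h. Sgce, a sarcoglycan, fell in the same 6 h by 1.02 (3.66 and 3.53 to 2.55 and 2.59, SE 0.146, adjusted p = 1.22e-06), a call lost without replicate A of 0 h (-1.09 to -0.96 over the 4 libraries). From 48 h to 120 h both rose, Peg10 by 1.63 (adjusted p = 5.14e-09) and Sgce by 2.02 (adjusted p = 5.98e-12).

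Of their neighbours of the maternal copy, Calcr, the calcitonin receptor, changed most. It went from 0.55 and -0.38 log2 CPM at 0 h to 4.23 and 4.14 at 48 h, a rise of 4.10 (SE 0.25, adjusted p = 1.47e-13) or 17.2-fold. It then fell by 1.86 to 2.35 and 2.30 at 120 h (SE 0.25, adjusted p = 4.72e-07), still above both 0 h libraries. This was the single call of a fall from 48 h to 120 h among the members. Ppp1r9a, which encodes the actin-binding neurabin, was lower by 1.17 at 6 h (adjusted p = 7.67e-05), a call lost without any 1 of the 4 libraries (-1.25 to -1.08), and Asb4 had no call.

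Mest and Grb10 were the members called higher in all 4 comparisons. Mest, an enzyme-like protein of mesoderm expressed from the paternal copy, rose from 5.75 and 5.73 log2 CPM at 0 h to 6.96 and 7.004 at 6 h, was at 6.64 and 6.59 at 48 h and ended at 7.25 and 7.44. The changes were 1.25 from 0 h to 6 h (SE 0.0905, adjusted p = 1.03e-11, limma), 0.88 from 0 h to 48 h (adjusted p = 4.05e-09), 0.73 from 48 h to 120 h (adjusted p = 1.22e-07) and 1.61 from 0 h to 120 h (adjusted p = 2.54e-14). Copg2, a coatomer subunit that overlaps Mest tail to tail by 912 bp, was called in none of the 4 comparisons, though it passed the F test over time (adjusted p = 4.09e-05). Grb10, an adaptor that binds the receptors of insulin and insulin-like growth factors and restrains growth, rose from 6.04 and 5.92 at 0 h to 7.12 and 6.86 at 6 h, 7.44 and 7.26 at 48 h and 8.75 and 8.70 at 120 h. Its change from 0 h to 6 h was 1.01 (SE 0.128, adjusted p = 2e-07). Over the 120 h it was 2.74 (adjusted p = 4.68e-16), or 6.70-fold, with 1.37 in each of the intervals from 0 h to 48 h (adjusted p = 6.59e-10) and from 48 h to 120 h (adjusted p = 8.76e-10).

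Igf2r, the receptor that carries Igf2 to the lysosome and is expressed from the maternal copy, differed between time points in the F test (adjusted p = 1.65e-13, limma) but in none of the 4 comparisons. It had 6.92 and 6.79 log2 CPM at 0 h, 6.27 and 5.96 at 6 h, 6.70 and 6.57 at 48 h and 7.42 and 7.37 at 120 h. Of these 4 times the 6 h libraries were lowest and the 120 h libraries highest, while over the whole course the lowest mean was 5.48 at 12 h and the highest 7.61 at 108 h. The changes were -0.74 (adjusted p = 0.000932), -0.22 (adjusted p = 0.301), 0.75 (adjusted p = 0.000796) and 0.54 (adjusted p = 0.0134) in the order of the comparisons. Airn, the paternal RNA that overlaps Igf2r by 28354 bp on the other strand, had 0 reads at 0 h and at 48 h and 38 and 37 reads at 120 h. It was at least 13.8-fold higher at 120 h than at 48 h and at least 11.5-fold higher than at 0 h, against the floor of 3 reads per library. The fitted changes were 6.38 (SE 0.908, adjusted p = 1.16e-06) and 6.13 (adjusted p = 2.17e-06), and the latter lost its call without replicate B of 120 h (6.06 to 6.21 over the 4 libraries). Of the 42 libraries, 30 had 3 or fewer reads of Airn, and the strand setting bears on it as on Igf2os. With 0 reads at 0 h and 48 h, Airn passed the filter only through other libraries, so its late rise is partly given by the filter.

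In the Prader-Willi and Angelman region on chromosome 7, Magel2 and Ndn, of the MAGE family and the paternal copy, rose. Magel2 went from -0.35 and -0.64 log2 CPM at 0 h to 1.01 and 1.24 at 6 h, 3.47 and 3.34 at 48 h and 2.68 and 2.70 at 120 h. All later libraries named were above those of 0 h. Its changes from 0 h were 1.62 at 6 h (SE 0.238, adjusted p = 1.93e-06, limma), 3.90 at 48 h (adjusted p = 1.52e-13) and 3.19 at 120 h (adjusted p = 8.96e-12). The call at 6 h was lost without replicate B of 0 h or of 6 h (1.48 to 1.76). Ndn was higher by 1.52 at 120 h than at 0 h (adjusted p = 3.44e-08). Ube3a, a ubiquitin ligase that is imprinted in neurons, was higher by 1.54 at 48 h (adjusted p = 7.95e-06), a call lost without replicate A of 48 h or replicate B of 0 h (1.42 to 1.67).

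Dcn, the matrix proteoglycan decorin, had 0 reads in both libraries of 0 h, 42 and 39 reads at 48 h and 11 and 6 reads at 120 h. It was at least 11.3-fold higher at 48 h than at 0 h against the floor, with a fitted change of 6.10 (SE 0.812, adjusted p = 3.19e-07). With 0 reads at 0 h, Dcn passed the filter only through other libraries, so this rise is partly given by the filter. Its highest mean, 0.74 log2 CPM, was at 60 h, and at 120 h the fitted change from 0 h did not pass the threshold (3.996, adjusted p = 0.000159). The other members lie in loci with 1 or 2 members found. Zdbf2, of the paternal copy, was higher by 2.33 at 6 h (adjusted p = 1.65e-08), by 1.85 at 48 h (adjusted p = 5.74e-07) and by 1.87 at 120 h (adjusted p = 5.73e-07) than at 0 h. Impact, a regulator of translation, was higher by 0.90, 2.07 and 1.66 at these times (adjusted p = 5.59e-08, 3.78e-15 and 3.03e-13).

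Gnas, the alpha subunit of the stimulatory G protein, was higher by 1.09 at 120 h than at 48 h (adjusted p = 1.06e-08) and by 1.21 than at 0 h (adjusted p = 1.36e-09). Nespas, an RNA antisense to Gnas with an overlap of 11117 bp, was higher by 1.60 at 6 h than at 0 h (adjusted p = 5.3e-06), a call lost without replicate A of 0 h or of 6 h (1.43 to 1.77). Trappc9, of a vesicle tethering complex, was lower by 1.18 at 48 h than at 0 h (adjusted p = 1.02e-07). Blcap was higher by 0.64 at 120 h (adjusted p = 3.71e-05), a call lost without any 1 of the 4 libraries (0.55 to 0.72). Commd1 and the retrogenes Zrsr1 and Mcts2, whose reads may be shared with the genes they were copied from, had no call.

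Compared per kilobase of exon, the order of the members changed over the course. At 0 h Cd81 led with 114 ± 3.28 CPM per kb (SD, n = 2), followed by Peg10 with 67.6 ± 2.27 and Gnas with 25.2 ± 1.31. By 120 h Peg10 stood at 216 ± 1.14, Cd81 at 106 ± 3.06 and Igf2 at 102 ± 4.75, the latter 2 apart by less than the sum of their SDs, while H19 stood at 49.4 ± 3.31.

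The duplicates of the members were far apart at 96 h. Replicates B and A of the median member lay 0.567 log2 units apart, against 0.407 for the median of all genes, and 9 of the members differed by more than 1, against 13.54% of all genes. At the other time points 0 to 4 members did. Replicate B minus replicate A was -2.84 for H19, -1.23 for Kcnq1 and -1.28 for Copg2. It was 1.80 for Cdkn1c, 1.67 for Ascl2, 1.43 for Dlk1 and 1.25 for Phlda2. At 96 h the markers of primitive streak and mesoderm (T, Mixl1, Eomes and Kdr) summed to 97.1 CPM in replicate A and 462 CPM in replicate B. Trophoblast markers summed to 48.5 and 119 CPM and those of the undifferentiated state to 1140 and 1824 CPM. Extraembryonic endoderm markers had 25.95 and 34.3 CPM and those of neuroectoderm 116 and 123.8 CPM. Lower in replicate B were the markers of epiblast (298.8 and 191.9 CPM) and of fibroblasts or feeder cells (31.8 and 15.9 CPM). Their part in the differences at 96 h was not tested.

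**Figure D4:**
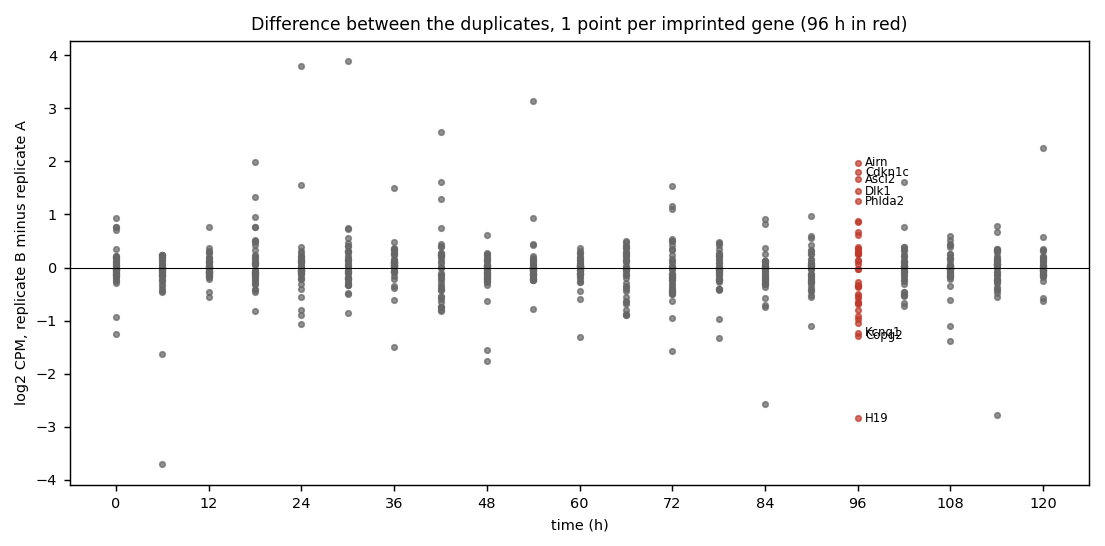
Difference between replicates B and A in log2 CPM for each of the 39 imprinted genes at each time point, with 96 h in red. At 96 h H19 lies at -2.84 and Airn, Cdkn1c and Ascl2 lie at 1.98, 1.80 and 1.67.

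Genes that write, keep and remove the imprints were called higher mainly before 48 h and lower after it. Of 15 such genes, all found, 6 were higher and 2 lower from 0 h to 48 h, and 1 was higher and 6 lower from 48 h to 120 h. In the other intervals 2 were higher and 1 lower from 0 h to 6 h, and 2 higher and 3 lower from 0 h to 120 h. In percent, 40 were higher from 0 h to 48 h, against 14.8% of all genes, and 13.3 lower, against 15.6%. From 48 h to 120 h 40% were lower, against 11%, and 6.67% higher, against 14.2%. Within 6 h the shares were 13.3% higher and 6.67% lower, against 11.8% and 14.5%. Over the 120 h they were 13.3% higher and 20% lower, against 12.9% and 10.1%. Dnmt3b, a de novo DNA methyltransferase, went from 6.52 and 6.37 log2 CPM at 0 h to 10.6 and 10.5 at 48 h and 7.54 and 7.39 at 120 h, a rise of 4.11 (adjusted p = 5.54e-21, limma) and a fall of 3.09 (adjusted p = 2.7e-18). Dnmt3a, its relative, rose by 2.92 and fell by 2.82 over the same intervals (adjusted p = 2.77e-19 and 6.79e-19). Dppa3, which protects methylation in the early embryo, rose by 4.69 from 48 h to 120 h (adjusted p = 6.03e-11). Zfp57, chosen after its values were seen, fell by 2.09 from 0 h to 48 h (adjusted p = 6.56e-12).

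**Figure D5:**
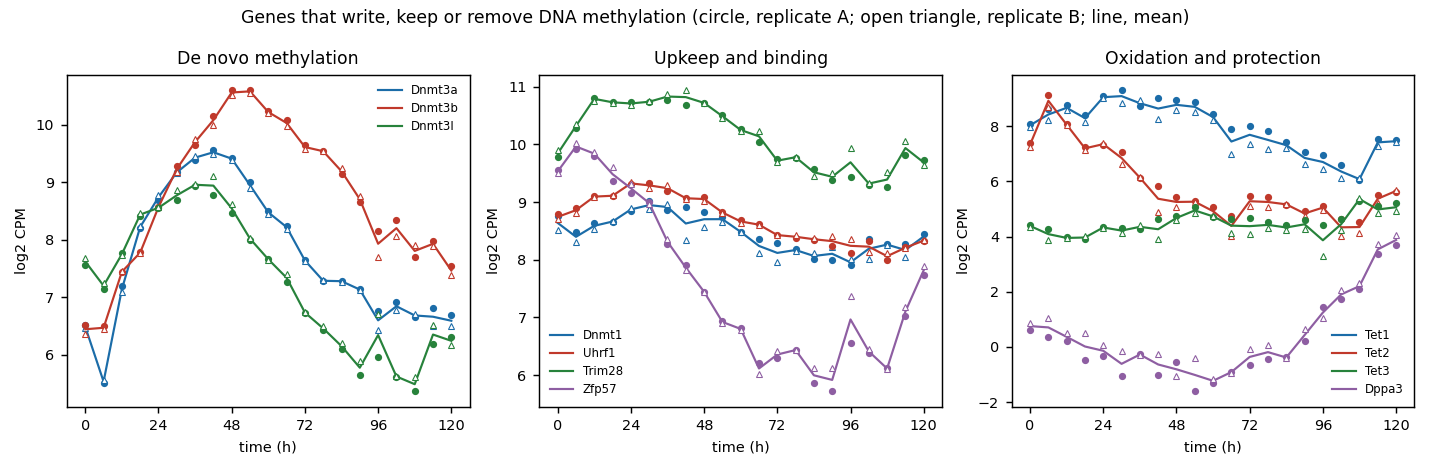
Log2 CPM over time of 11 genes that write, keep or remove DNA methylation, with circles for replicate A, open triangles for replicate B and lines through the means. Dnmt3b peaks near 48 h at 10.6, Zfp57 falls from about 9.5 at 0 h, and Dppa3 climbs to 3.88 at 120 h.

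The other genes of insulin-like growth factor signalling, with 11 of 12 found, rose in the main over the 120 h but not in the first 6 h. From 0 h to 120 h 8 were higher (72.7%) and 0 lower, against 12.9% and 10.1% of all genes. By unadjusted p below 0.05 9 were higher and 0 lower, against 4108 and 4028 of all 14296 genes. Within 6 h 2 were higher and 2 lower (18.2% each, against 11.8% and 14.5%), with a median log2 change of -0.364. By unadjusted p below 0.05 3 were then higher and 6 lower, against 4148 and 4718 of all genes. For 0 h to 48 h 5 were higher and 2 lower (45.5% and 18.2%, against 14.8% and 15.6%). The unadjusted counts were 7 and 4, against 4710 and 4650 of all genes. After 48 h 5 were higher and 0 lower (45.5% and 0%, against 14.2% and 11%), with 8 and 1 by unadjusted p below 0.05, against 4455 and 4274 of all genes. The largest changes from 0 h to 120 h were those of Irs1, a substrate of the insulin and Igf1 receptors (4.79, adjusted p = 3.64e-15), and of the binding proteins Igfbp3 (4.59, adjusted p = 5.26e-20) and Igfbp5 (4.52, adjusted p = 1.35e-13). Irs1 stood at 0.50 and 0.60 log2 CPM at 0 h and at 5.46 and 5.23 at 120 h.

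Of 19 genes next to the imprinted loci that are not on the list, 18 were found. Over the 120 h 5 were higher and 2 lower (27.8% and 11.1%, against 12.9% and 10.1% of all genes). The median log2 change was -0.00823. From 48 h to 120 h 3 were higher and 2 lower (16.7% and 11.1%, against 14.2% and 11%). Within 6 h 2 rose and 2 fell (11.1% each, against 11.8% and 14.5%). Between 0 h and 48 h 1 rose and 2 fell (5.56% and 11.1%, against 14.8% and 15.6%). Apart from the 27.8%, these shares were near or below those of all genes. The 3 that rose after 48 h were Tnnt3, Lsp1 and Tnni2, all beside H19. Tnnt3 and Tnni2, troponins of fast skeletal muscle, had 0 reads at 48 h and were at least 24.4-fold and at least 12.6-fold higher at 120 h, where they had 60 and 72 and 38 and 31 reads. Both passed the filter only through libraries other than those of 48 h, so their rise from 48 h is partly given by the filter. Lsp1, a leukocyte actin-binding protein, rose by 5.76 (adjusted p = 3.34e-07). The study itself named genes of this stretch on these samples, so the choice of these neighbours is not independent of their course. Mrpl23, the nearest gene beyond H19, had 3.95 and 3.995 log2 CPM at 48 h and 4.48 and 4.84 at 120 h and was not called (0.69, adjusted p = 0.00166).

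Markers of other cell types moved in the same hours as the late rise of Igf2, H19 and their neighbours. The markers of fibroblasts or feeder cells, with 7 of 8 found, summed to 25.8 and 29.1 CPM at 0 h, 10.6 and 9.45 CPM at 48 h and 110 and 98.6 CPM at 120 h, and 3 of the 7 were higher and 0 lower from 48 h to 120 h (6 higher and 0 lower by unadjusted p below 0.05). At 0 h Col3a1 had 0 reads and Col1a2 had 2 reads in each library, while Col1a1 had 113 and 139 reads and Thy1 had 456 and 533. Postn had 0 reads at 48 h. Thy1 went the other way, from a mean of 4.37 log2 CPM at 0 h to 1.82 at 120 h, and from 0 h to 120 h 5 of the 7 were higher and 1, Thy1, was lower. Trophoblast markers (6 of 7 found, the member Ascl2 among them) summed to 26.2 and 25.4 CPM, 6.24 and 6.24 CPM and 106 and 109 CPM at these times, with 4 higher and 0 lower from 48 h to 120 h (5 and 1 by unadjusted p below 0.05). Extraembryonic endoderm markers (3 of 7 found) went from 3.88 and 4.96 CPM to 13 and 13.1 and to 40.2 and 41.4 CPM. Those of neuroectoderm went from 17.8 and 14.4 to 32.2 and 30.3 and to 201 and 186 CPM. Markers of the epiblast were at 40.3 and 43.9 CPM, 448 and 461 CPM and 214 and 189 CPM, highest at 48 h. Primitive streak and mesoderm markers (4 of 5 found) summed to 14.8 and 14.1, 17.3 and 16.9 and 70.7 and 60.1 CPM. From 48 h to 120 h 2 of them were higher and 0 lower. Of the 6 markers of the undifferentiated state, 5 were lower and 0 higher from 0 h to 48 h. From 48 h to 120 h 3 of these 6 were higher and 1 lower, with a median log2 change of 1.09. At 120 h Tfap2c led the trophoblast markers, with a mean of 6.40 log2 CPM, and Gata3 followed with 3.37. Dab2 led those of extraembryonic endoderm (4.96, then Gata4 at 2.97) and Nes those of neuroectoderm (7.17, then Sox1 at 5.56). These sums thus rest mainly on the leading genes. Sox17, Afp, Ttr and Apoa1 of the endoderm list and Elf5 of the trophoblast list were not found. Over all genes 14.2% were called higher and 11% lower from 48 h to 120 h. By unadjusted p below 0.05 4455 of the 14296 genes were then higher and 4274 lower. The part of any of these cell types in the changes of the imprinted genes was not tested.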

How the data were processed

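Poly-A RNA of 42 libraries of differentiating W9.5 cells, 2 at each of 21 time points, had been prepared with a stranded kit and sequenced in paired ends. The authors used Trim Galore for trimming and TopHat2 for alignment to mm10, counted GENCODE vM2 genes with HTSeq, kept genes above 1 CPM in at least 2 samples, normalized library sizes with edgeR and applied voom. Tool versions are not given in the sources used here. The values deposited by the authors are log2 CPM with the voom offset of 0.5 reads, and whole reads recovered from them gave the depth.

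Symbols came from GENCODE vM21 on GRCm38, where 14177 of 14296 genes matched and 119 did not. Time point and replicate were taken from the labels. Changes were tested on the deposited log2 values with limma 3.58.1 in R 4.3.3 (lmFit, eBayes with trend), with a factor of 21 time points over all 42 samples (21 residual degrees of freedom), Benjamini-Hochberg adjustment over all genes of a contrast and the threshold of the study, an adjusted p below 0.0001. The fit was tested on simulated data. Python 3.11.15, numpy 2.4.6, pandas 2.3.3 and matplotlib 3.10.9 were used.

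The members and gene lists were chosen with earlier results of these data known. Full values are given for the 12 members with the largest called change of the same sign in both replicates and for H19, Igf2, Meg3, Dlk1, Peg3, Mest and Igf2r, and from other lists for the 3 genes with the largest change. The alternatives were a replicate block, voom precision weights, a low filter, quantile normalization, a pseudocount of 1 CPM, an adjusted p below 0.05, neighbouring time points, only the time points compared, each library left out and, added later, 96 h left out. Intervals and floors cover counting error only.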

Additional observations from a re-analysis of the deposited data

How the results depend on the processing

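None of the 68 called changes of single members reversed in any setting. The number of members called moved by over 1.5 times in few settings. With an adjusted p below 0.05 it was 25 from 0 h to 6 h and 29 from 48 h to 120 h. With neighbouring time points averaged (42 h to 54 h, and 114 h with 120 h) it was 21 from 48 h to 120 h. The share of all genes called is not given here for the alternative settings, so higher counts cannot be read as particular to the members. Leaving out 1 library gave 6 to 8 calls from 0 h to 6 h, 13 to 15 from 0 h to 48 h, 12 to 13 from 48 h to 120 h, 18 to 20 from 0 h to 120 h and 28 to 36 over any time. Of the 68 changes, 21 lost the call without at least 1 of their 4 libraries and 10 without each of them; a time point then has a single library, which is assumed to vary like the others. Calls were kept for 63 of 68 with voom precision weights, 60 with quantile normalization, 64 with a pseudocount of 1 CPM, 53 with only the time points compared and 67 with 96 h left out, and for all 59 that a low filter left to test.

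The letters A and B were not taken to pair the libraries, because that required a correlation of same-letter deviations over 0.1 for every pair of time points, and it was so for 47.1% of 210 pairs (-0.474 to 0.598, mean 0.0795). For the times compared it was 0.0675 between 0 h and 6 h, 0.158 between 0 h and 48 h, 0.305 between 48 h and 120 h and 0.12 between 0 h and 120 h, so a shared batch of a letter at some times cannot be told from these values. With a replicate block the calls were 18, 21, 16 and 24 in the order 0 h to 6 h, 0 h to 48 h, 48 h to 120 h and 0 h to 120 h, and 34 over any time, against 14, 18, 13, 23 and 32, and all 68 changes were still called.

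For the genes of imprint upkeep, insulin-like growth factors and neighbouring genes together, 11, 18, 17 and 20 calls became 24, 34 and 30 in the first 3 comparisons with an adjusted p below 0.05. From 0 h to 6 h 7 were called with only the 2 time points compared and 6 to 7 with 1 library left out. From 48 h to 120 h leaving out 1 library gave 11 to 14, and quantile normalization gave 12 higher and 5 lower in place of 9 and 8. With a replicate block these counts were 13, 21, 22 and 22. Few reads limit Airn, Igf2os, Dcn and Kcnq1.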
